A study of Homo sapiens with 6 samples.

Results

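The 58 genes described here encode the contractile apparatus of muscle and the dystrophin complex, and they were taken by gene symbol from the 60623 genes of a raw count table of TC28a2 cells, all 58 being found once. They comprised 4 actins, 7 myosin heavy chains, 8 genes for myosin light chains and their kinase, 8 troponins, 4 tropomyosins, 10 Z-disc, M-band, and giant sarcomere proteins, 4 smooth muscle actin-binding proteins, 7 members of the dystrophin complex, and 6 genes of calcium release and reuptake. TC28a2 is an immortalized line of human chondrocytes, the cells of cartilage, and mocetinostat inhibits histone deacetylases (HDACs). Cells received 2 μM mocetinostat in 3 samples and the solvent DMSO in 3 samples, and total RNA was collected after 24 hours. Both groups were the same line with no other agent named, and the study, though not the labels, describes the samples of a group as coming from separate experiments.

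In striated muscle, myosin filaments pull on actin filaments that are anchored at the Z-disc, while troponin and tropomyosin on the actin filament control the pull in response to calcium released from the sarcoplasmic reticulum. Smooth muscle lacks troponin and is switched on instead by phosphorylation of the myosin regulatory light chain. The dystrophin complex links the actin cytoskeleton through the membrane to laminin in the extracellular matrix, and most cells, chondrocytes included, carry nonmuscle relatives of the contractile genes.

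The values were whole counts of reads per gene. Totals were between 4873426 and 11031132 reads under DMSO and between 1619344 and 5089542 under mocetinostat, and the precision for low genes was poorer in the latter group. Levels are given as CPM, read counts scaled to a common library size by edgeR's TMM method. A count of 0 allows a level of up to 0.271 CPM in the deepest library and up to 1.86 CPM in the shallowest one. Of the 18 chondrocyte markers examined, *CNMD* was at 0 in every library, and the summed level of the list was 128.2 to 149.3 CPM with DMSO and 277.3 to 318.6 CPM with mocetinostat.

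With mocetinostat, the genes of the giant sarcomere proteins titin and nebulin, of the ryanodine receptors RYR1 and RYR2, and of dystrophin were higher, while the abundant tropomyosin and myosin light chain genes stayed under the fold threshold in either direction. Of the 58 genes, 26 passed the expression filter and were tested, and 32 did not pass. A gene was called upregulated (URG) or downregulated (DRG) at an adjusted p under 0.05 in edgeR's quasi-likelihood test and an absolute log2 fold change over 1. By this rule *TTN*, *NEB*, *LMOD1*, *DMD*, *SNTB1*, *RYR1*, and *RYR2* were URGs and *TAGLN* was a DRG, that is 7 and 1 of the 26 tested, where 20.2% of all 13966 genes tested were URGs and 8.18% were DRGs. With libraries scaled to their *GAPDH* counts the calls were 12 and 0, and with RLE size factors or library size alone 7 and 0. With either of the latter, 20.5% of all genes tested were URGs. *GAPDH*, a glycolytic enzyme gene, was itself lower with mocetinostat, at 3039 ± 89.8 CPM (SD, n = 3) with DMSO and 2111 ± 76.3 CPM (SD, n = 3) with mocetinostat, and scaling to it moved the median log2 fold change of all genes to 0.53, with 4425 URGs and 284 DRGs over all genes in place of 2827 and 1142.

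Without a minimum fold change, 12 of the tested members had an adjusted p under 0.05 in edgeR's test and a higher level with mocetinostat, where 32.9% of all genes tested did. A lower level with an adjusted p under 0.05 was found in 5 of them, where 31.4% of all genes tested did. In 14 members every mocetinostat sample lay above every DMSO sample, against 33.7% of all genes, and in 4 every one lay below, against 32.8%. The median log2 fold change of the 26 was 0.26, with a range of -1.01 to 3.68, and that of all genes tested was -0.002. *NEB*, *LMOD1*, *RYR1*, and *RYR2* passed the filter only through their mocetinostat samples and so had to differ. Over all genes, 1030 passed in this way and 1018 of them were URGs.

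**Figure D1:**
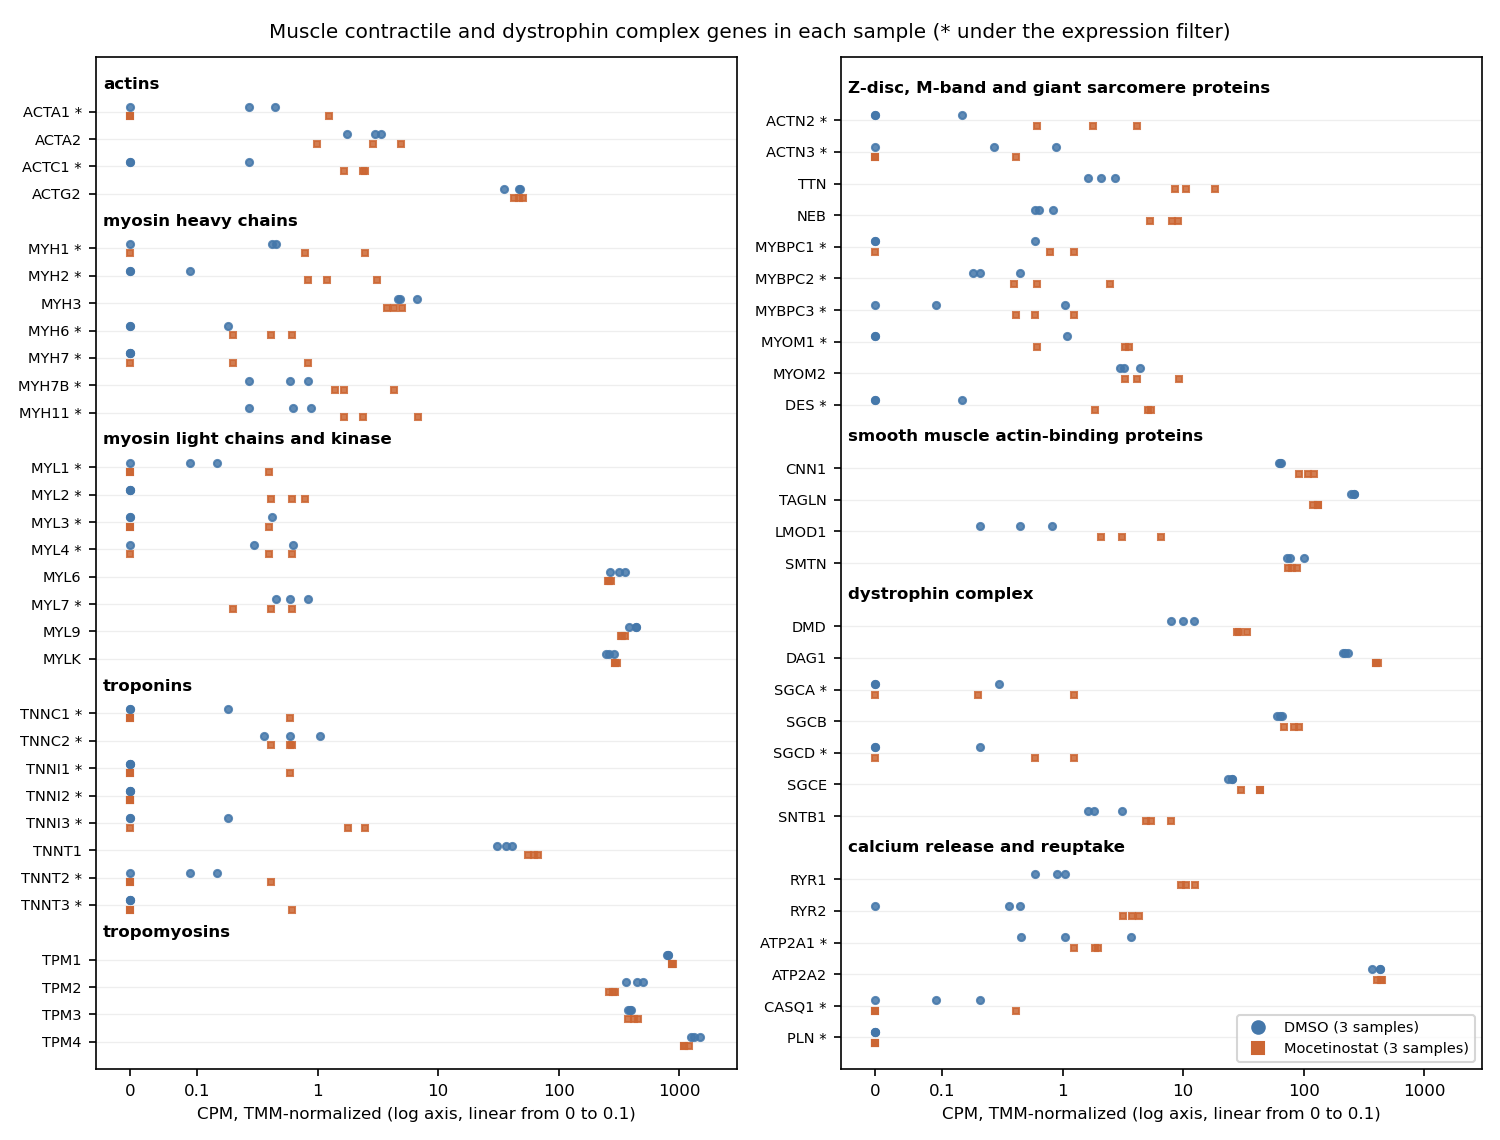
Each point is the level of 1 gene in 1 sample, in TMM-normalized CPM on a log axis that is linear from 0 to 0.1, with circles for DMSO, squares for mocetinostat, and an asterisk for genes under the filter. The tropomyosins, *MYL6*, *MYL9*, *MYLK*, and *ATP2A2* lie toward the right in both groups, whereas *TTN*, *NEB*, *RYR1*, *RYR2*, and *DES* lie below 3 CPM with DMSO and are displaced to the right with mocetinostat.

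**Figure D2:**
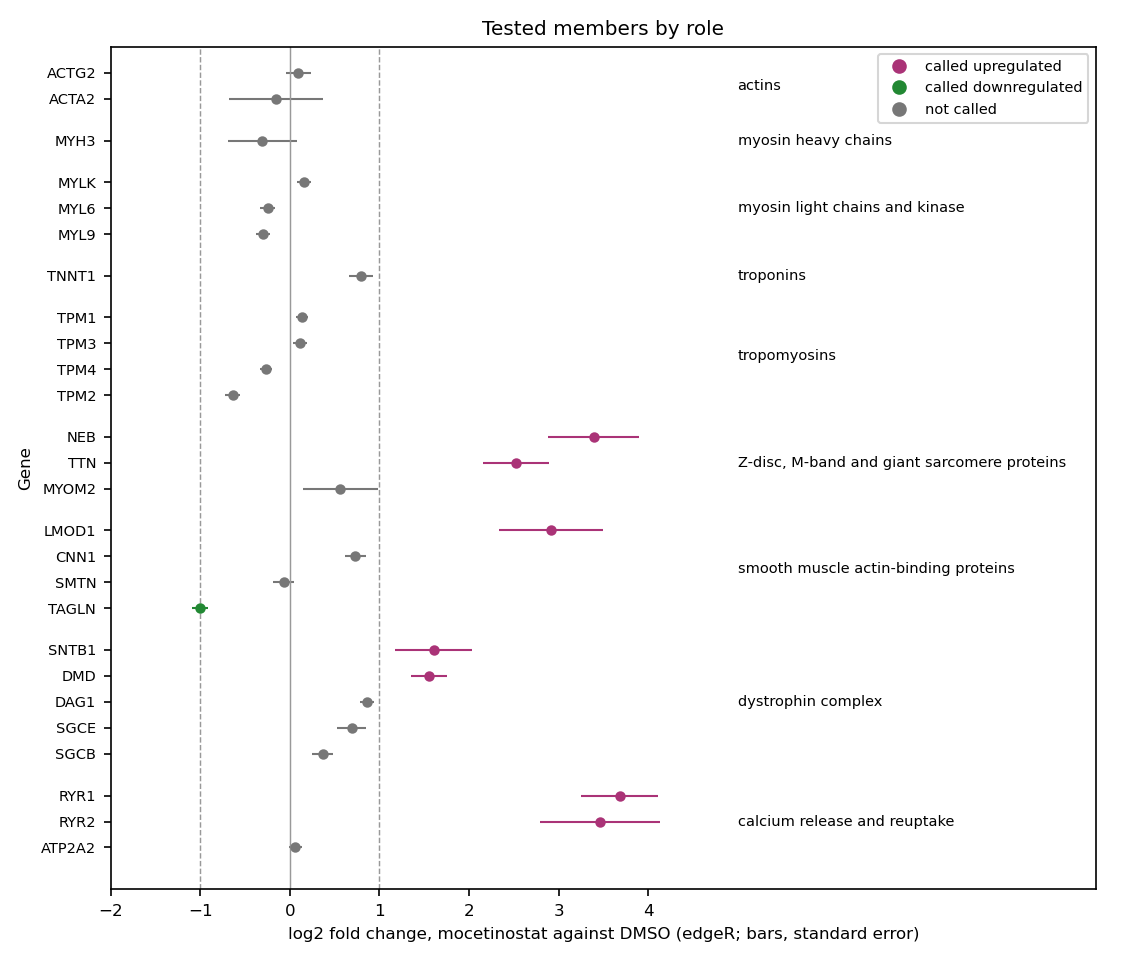
Log2 fold changes of the 26 tested genes, mocetinostat against DMSO, with standard errors from edgeR, grouped by role, with dashed lines at the fold threshold of 1 in each direction. The 7 URGs lie between 1.55 for *DMD* and 3.68 for *RYR1*, and *TAGLN* lies at -1.01, next to the threshold.

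Among the giant and structural proteins of the sarcomere, *TTN* and *NEB* were upregulated. *TTN* (ENSG00000155657, chromosome 2 of GRCh38 from 178525989 to 178830802, minus strand) encodes titin, the elastic filament that runs from the Z-disc to the M-band. It measured 2.08, 2.71, and 1.62 CPM in DMSO replicates 1, 2, and 3 and 8.52, 10.5, and 18.2 CPM in mocetinostat replicates 1, 2, and 3. All mocetinostat samples lay above all DMSO samples, and the third mocetinostat sample stood highest. The log2 fold change was 2.52 (standard error 0.37, edgeR adjusted p = 1.11e-08). These levels rest on 11 to 23 reads per library with DMSO and 17 to 44 with mocetinostat, for a gene whose canonical transcript is 109224 bases long. Antisense exons, those of *TTN-AS1* foremost, cover 17.69% of the *TTN* exons. *TTN-AS1* itself held 152, 49, and 60 reads under DMSO and 50, 14, and 17 under mocetinostat. Whether the counting used strand is not given in the sources used here, so that reads from the shared exons cannot be told apart. The promoter window of *TTN* is shown because it was the sole one, among the 6 URGs that had one in RefSeq, with a MEF2 site, the recognition sequence of the MEF2 factors of muscle. The site starts 167 bases before the start site, and an MCAT site (CATTCC) starts 11 bases after it, both in capitals.
TTN promoter, chr2:178807374-178807673, minus strand, GRCh38.p14 (RefSeq): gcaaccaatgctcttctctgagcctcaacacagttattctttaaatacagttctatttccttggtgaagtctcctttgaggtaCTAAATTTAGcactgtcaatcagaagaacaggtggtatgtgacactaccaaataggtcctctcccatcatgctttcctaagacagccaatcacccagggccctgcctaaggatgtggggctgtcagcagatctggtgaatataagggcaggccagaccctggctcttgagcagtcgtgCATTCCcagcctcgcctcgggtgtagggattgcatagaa

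*NEB* (ENSG00000183091, chromosome 2 from 151485336 to 151734487, minus strand), which encodes nebulin, a protein that runs along the thin filament of skeletal muscle, measured 0.633, 0.833, and 0.590 CPM with DMSO. With mocetinostat it measured 5.35, 8.06, and 9.12 CPM. The groups were far apart, although the DMSO values stand for 7, 4, and 4 reads. The log2 fold change was 3.39 (standard error 0.51, edgeR adjusted p = 2.10e-08). Exons on the other strand, those of *RIF1* foremost, lie under 0.95% of the *NEB* exons. *RIF1* held 1489 to 3758 reads under DMSO and 261 to 844 under mocetinostat. *MYOM2*, an M-band protein gene, measured 2.99, 4.37, and 3.24 CPM with DMSO and 4.16, 9.30, and 3.32 CPM with mocetinostat, with overlapping groups (log2 fold change 0.56, standard error 0.42, edgeR adjusted p = 0.242). The other 7 genes of this group were under the filter.

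*DES*, which encodes desmin, the intermediate filament protein that ties Z-discs together, was one of these. It held 0, 0, and 1 reads under DMSO and 26, 3, and 13 under mocetinostat. Read from the pooled counts, its rate was 104.8 times higher with mocetinostat, with an exact 95% interval of 17.8 to 4238 that covers counting error only. *ACTN2*, the gene of the actin crosslinker of the striated muscle Z-disc, held 0, 0, and 1 reads under DMSO and 9, 1, and 10 under mocetinostat, a ratio of 49.9 (95% interval 7.99 to 2069). *MYOM1*, which encodes the M-band protein myomesin, held 12, 0, and 0 reads under DMSO and 18, 1, and 8 under mocetinostat, a ratio of 5.62 (95% interval 2.75 to 12.2). Its DMSO counts came from a single library, so that the groups overlapped in CPM. Without the expression filter, edgeR called *DES* (adjusted p = 2.65e-08), *ACTN2* (adjusted p = 5.68e-04), and *MYOM1* upregulated, whereas DESeq2 gave *MYOM1* an adjusted p of 0.0751. *ACTN3*, the fast-fiber α-actinin gene, and the myosin-binding protein C genes *MYBPC1*, *MYBPC2*, and *MYBPC3* held at most 6 counts in any library.

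Both ryanodine receptor genes among the members, which encode channels that release calcium from the sarcoplasmic reticulum, were URGs, and both had passed the filter only through mocetinostat. *RYR1* (ENSG00000196218, chromosome 19 from 38433691 to 38595273, plus strand), the skeletal muscle form, measured 0.905, 1.04, and 0.590 CPM with DMSO and 12.5, 10.5, and 9.53 CPM with mocetinostat. The mocetinostat samples were close to each other and all about an order of magnitude above the DMSO samples. The log2 fold change was 3.68 (standard error 0.43, edgeR adjusted p = 1.17e-11), from 19 reads over the DMSO group and 103 over the mocetinostat group. *RYR2* (ENSG00000198626, chromosome 1 from 237042184 to 237833988, plus strand), the cardiac form, measured 0.362, 0, and 0.442 CPM with DMSO and 3.17, 4.34, and 3.73 CPM with mocetinostat. One DMSO library held no read at all, and the groups did not overlap. Its log2 fold change was 3.47 (standard error 0.67, edgeR adjusted p = 6.03e-06).

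*ATP2A2*, which encodes SERCA2, the pump that returns calcium to the reticulum in cardiac muscle and most other cells, measured 427.6, 431.1, and 370.1 CPM with DMSO and 444.7, 401.6, and 432.3 CPM with mocetinostat. The groups overlapped (log2 fold change 0.06, standard error 0.08, edgeR adjusted p = 0.498), and the sign was negative without the filter or without DMSO replicate 3. *ATP2A1*, the SERCA1 gene of fast skeletal muscle, held 5, 5, and 25 reads under DMSO and 10, 3, and 3 under mocetinostat, a pooled ratio of 1.14 (95% interval 0.590 to 2.12). Antisense exons, those of *ATP2A1-AS1* foremost, cover 22.62% of the *ATP2A1* exons. *ATP2A1-AS1* held 46, 33, and 49 reads under DMSO and 33, 10, and 13 under mocetinostat, and reads from shared exons cannot be told apart. *CASQ1*, which encodes a calcium-storing protein of the reticulum, held at most 1 count per library, and *PLN*, the gene of the SERCA inhibitor phospholamban, was at 0 in all 6.

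All 5 tested genes of the dystrophin complex were higher with mocetinostat at an adjusted p under 0.05 in edgeR's test, where 32.9% of all genes tested were, and in each the groups did not overlap, as in 33.7% of all genes tested. Their median log2 fold change was 0.86, with a range of 0.36 to 1.604. *DMD* (ENSG00000198947, chromosome X from 31097677 to 33339609, minus strand) encodes dystrophin, the protein that ties actin filaments to the complex at the membrane. It measured 12.4, 7.91, and 9.87 CPM with DMSO and 29.1, 27.9, and 34.0 CPM with mocetinostat. The lowest mocetinostat value was well above the highest DMSO value. The log2 fold change was 1.55 (standard error 0.20, edgeR adjusted p = 3.41e-10), and each library held at least 38 reads of the gene. Gene counts do not separate the full-length dystrophin transcripts from the short ones that start inside the gene. RefSeq lists 7 promoter windows for *DMD*, and the one shown was the only one of them with a CArG box, the recognition sequence of serum response factor (SRF), here in capitals and starting 98 bases before the start site.
DMD promoter, chrX:33211500-33211799, minus strand, GRCh38.p14 (RefSeq): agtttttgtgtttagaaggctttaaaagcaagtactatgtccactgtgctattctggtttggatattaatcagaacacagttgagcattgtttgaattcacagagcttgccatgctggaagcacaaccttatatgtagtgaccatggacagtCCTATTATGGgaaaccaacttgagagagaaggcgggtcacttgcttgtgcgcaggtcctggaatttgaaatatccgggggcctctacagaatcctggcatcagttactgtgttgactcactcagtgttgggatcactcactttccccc

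*DAG1*, which encodes dystroglycan, the membrane receptor that binds laminin outside and dystrophin inside the cell, was the most abundant gene of the complex, at 30.8 CPM per kb of exons with DMSO. It measured 219.3, 231.6, and 212.8 CPM with DMSO and 393.9, 398.5, and 409.9 CPM with mocetinostat. Each group was narrow and the groups lay far apart. The log2 fold change was 0.86 (standard error 0.08, edgeR adjusted p = 1.08e-15), under the fold threshold except when scaled to *GAPDH*, where it was 1.39. *SNTB1* (ENSG00000172164, chromosome 8), the gene of the dystrophin-binding adaptor β1-syntrophin, measured 1.81, 3.12, and 1.62 CPM with DMSO and 7.93, 4.96, and 5.39 CPM with mocetinostat. All mocetinostat samples were higher, on 8 to 40 reads per library. Its log2 fold change of 1.604 (standard error 0.43, edgeR adjusted p = 8.04e-04) fell to 1.29 with an adjusted p of 0.0505 when mocetinostat replicate 1 was left out. Antisense exons, those of ENSG00000272502 foremost, cover 10.8% of the *SNTB1* exons. ENSG00000272502 held 0, 0, and 1 reads under DMSO and 8, 2, and 3 under mocetinostat.

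The sarcoglycans form a membrane subcomplex beside dystroglycan. *SGCE*, the ε-sarcoglycan gene, measured 25.5, 25.2, and 23.7 CPM with DMSO and 43.2, 30.4, and 43.5 CPM with mocetinostat, with mocetinostat replicate 2 the nearest to the DMSO values (log2 fold change 0.69, standard error 0.16, edgeR adjusted p = 1.23e-04). Exons on the other strand, those of *PEG10* foremost, cover 1.05% of the *SGCE* exons. *PEG10* held 657, 286, and 425 reads under DMSO and 1397, 405, and 604 under mocetinostat. *SGCB*, the β-sarcoglycan gene, measured 64.0, 59.8, and 66.2 CPM with DMSO and 83.5, 68.2, and 90.8 CPM with mocetinostat (log2 fold change 0.36, standard error 0.12, edgeR adjusted p = 5.84e-03). *SGCA*, the sarcoglycan gene of striated muscle, and *SGCD*, the δ-sarcoglycan gene, held at most 3 counts in any library. The pooled ratio was 3.74 (95% interval 0.429 to 44.8) for *SGCA* and 12.5 (95% interval 1.397 to 590.3) for *SGCD*, the latter on 1 read under DMSO and 5 under mocetinostat.

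The 4 smooth muscle actin-binding genes were all tested and went in different directions. *LMOD1* (ENSG00000163431, chromosome 1 from 201896456 to 201946548, minus strand), which encodes the actin nucleator leiomodin 1 of smooth muscle, measured 0.814, 0.208, and 0.442 CPM with DMSO and 6.54, 3.10, and 2.07 CPM with mocetinostat. Every mocetinostat sample was higher, although replicates 2 and 3 held 5 reads each. The log2 fold change was 2.91 (standard error 0.58, edgeR adjusted p = 1.04e-05). *CNN1*, which encodes calponin 1, an inhibitor of actomyosin, measured 63.4, 62.3, and 65.3 CPM with DMSO and 107.6, 120.8, and 90.8 CPM with mocetinostat, all higher (log2 fold change 0.73, standard error 0.11, edgeR adjusted p = 5.64e-08).

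*TAGLN* (ENSG00000149591, chromosome 11 from 117199370 to 117207464, plus strand), which encodes the actin-bundling protein transgelin or SM22α, was the one DRG. It measured 261.4, 247.0, and 261.6 CPM with DMSO and 130.4, 120.2, and 131.0 CPM with mocetinostat. The mocetinostat samples lay far below the DMSO samples. Its log2 fold change was -1.01 (standard error 0.09, edgeR adjusted p = 2.76e-16). This value sits at the fold threshold, and the call was lost in 7 of 15 alternatives, with log2 values from -1.26 to -0.47 and *GAPDH* scaling giving the smallest fall. Exons on the other strand, those of *PCSK7* foremost, cover 34.09% of the *TAGLN* exons. *PCSK7* held 556, 218, and 349 reads under DMSO and 250, 55, and 98 under mocetinostat. Exons of other genes on the same strand, those of ENSG00000280143 foremost, cover 38.14% of the *TAGLN* exons. ENSG00000280143 held 4, 1, and 0 reads under DMSO and none under mocetinostat. *SMTN*, which encodes the smooth muscle actin-binding protein smoothelin, measured 72.5, 76.4, and 101.1 CPM with DMSO and 73.3, 87.4, and 80.0 CPM with mocetinostat, with overlapping groups (log2 fold change -0.07, standard error 0.12, edgeR adjusted p = 0.621) and a sign that depended on the scaling and on DMSO replicate 3.

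Neither tested muscle actin passed the test. *ACTG2*, the γ-actin gene of visceral smooth muscle, measured 46.8, 47.3, and 35.4 CPM with DMSO and 42.8, 50.8, and 46.4 CPM with mocetinostat, with overlapping groups (log2 fold change 0.09, standard error 0.14, edgeR adjusted p = 0.582). *ACTA2*, the α-actin gene of vascular smooth muscle and myofibroblasts, measured 2.99, 3.33, and 1.77 CPM with DMSO and 0.991, 4.96, and 2.90 CPM with mocetinostat. The mocetinostat samples spanned the whole DMSO range (log2 fold change -0.16, standard error 0.53, edgeR adjusted p = 0.812), and the sign was positive with *GAPDH* scaling and without mocetinostat replicate 1. Antisense exons, those of *ACTA2-AS1* foremost, cover 35.98% of the *ACTA2* exons. *ACTA2-AS1* held 5, 3, and 0 reads under DMSO and 7, 2, and 1 under mocetinostat. *ACTC1*, the cardiac α-actin gene, held 3, 0, and 0 reads under DMSO and 12, 4, and 4 under mocetinostat, a ratio of 16.6 (95% interval 4.94 to 87.5), and *ACTA1*, the skeletal form, held at most 3 counts per library. The *ACTG2* promoter is shown because it was the only member window with 2 CArG boxes, in capitals, starting 110 and 73 bases before the start site, in a gene whose groups overlapped.
ACTG2 promoter, chr2:73892758-73893057, plus strand, GRCh38.p14 (RefSeq): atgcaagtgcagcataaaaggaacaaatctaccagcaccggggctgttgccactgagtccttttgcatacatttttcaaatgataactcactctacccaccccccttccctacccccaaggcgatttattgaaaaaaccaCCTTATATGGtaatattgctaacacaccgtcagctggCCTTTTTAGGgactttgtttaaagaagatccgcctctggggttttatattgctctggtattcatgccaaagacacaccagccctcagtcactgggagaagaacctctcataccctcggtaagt

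The myosin heavy chains, the motors of muscle, were nearly absent. *MYH3*, the embryonic form, was the one tested, at 4.61, 6.66, and 4.86 CPM with DMSO and 3.77, 4.34, and 4.97 CPM with mocetinostat, with overlapping groups (log2 fold change -0.31, standard error 0.38, edgeR adjusted p = 0.494) and a positive sign with *GAPDH* scaling. *MYH11*, the smooth muscle form, held 3, 3, and 6 reads under DMSO and 12, 11, and 4 under mocetinostat, a ratio of 5.62 (95% interval 2.75 to 12.2). *MYH2*, a fast skeletal form, held 1, 0, and 0 reads under DMSO and 6, 5, and 2 under mocetinostat, a ratio of 32.5 (95% interval 4.87 to 1379). *MYH7B*, a striated muscle form, held 3, 4, and 4 reads under DMSO and 7, 7, and 4 under mocetinostat, a ratio of 4.09 (95% interval 1.83 to 9.57). In these 3 genes every mocetinostat sample had a higher CPM than every DMSO sample, where 33.7% of all genes tested did. That share is from genes past the filter, which these were not. The same separation was seen for *MYH6*, on 2 reads over the DMSO group and 3 over the mocetinostat group. The separation rests on few reads, and *MYH7B* held 4 reads in both DMSO replicate 3 and mocetinostat replicate 3. The groups of *MYH1* overlapped in CPM. The fast skeletal gene *MYH1* and the cardiac genes *MYH6* and *MYH7* held at most 6 counts per library. Between 4.3% and 7.44% of the 100-base stretches of *MYH1*, *MYH2*, *MYH6*, and *MYH7* are shared with other genes, so that reads could be split between them.

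Of the myosin light chain genes, those of smooth muscle and nonmuscle cells were abundant. *MYL9*, the regulatory light chain whose phosphorylation switches on smooth muscle myosin, measured 379.0, 440.4, and 432.7 CPM with DMSO and 330.1, 351.4, and 335.3 CPM with mocetinostat, all lower (log2 fold change -0.30, standard error 0.08, edgeR adjusted p = 5.32e-04), but higher by 0.23 when scaled to *GAPDH*. *MYL6*, the essential light chain of smooth muscle and nonmuscle myosin, measured 267.7, 318.4, and 353.7 CPM with DMSO and 272.4, 255.3, and 259.4 CPM with mocetinostat (log2 fold change -0.25, standard error 0.08, edgeR adjusted p = 7.98e-03), and it too was higher, by 0.28, when scaled to *GAPDH*. Its groups overlapped through DMSO replicate 1. *MYLK*, which encodes the kinase of the regulatory light chain, measured 247.2, 262.6, and 287.1 CPM with DMSO and 292.2, 302.4, and 293.8 CPM with mocetinostat, above the DMSO values by a small margin (log2 fold change 0.16, standard error 0.08, edgeR adjusted p = 0.0851) and with a negative sign when no filter was applied. The striated and cardiac genes *MYL1*, *MYL2*, *MYL3*, *MYL4*, and *MYL7* held at most 5 counts per library. Of these *MYL2*, the ventricular form, held 0 counts in each DMSO sample and 4, 1, and 1 with mocetinostat. The window of *MYLK* is shown for its CArG box, 94 bases before the start site, with an MCAT site 1 base before the start. This window lies inside the gene, which runs from 123610049 to 123884332 on the minus strand. Its start site is therefore not the upstream end of the gene, and gene counts do not separate transcripts by their start.
MYLK promoter, chr3:123620499-123620798, minus strand, GRCh38.p14 (RefSeq): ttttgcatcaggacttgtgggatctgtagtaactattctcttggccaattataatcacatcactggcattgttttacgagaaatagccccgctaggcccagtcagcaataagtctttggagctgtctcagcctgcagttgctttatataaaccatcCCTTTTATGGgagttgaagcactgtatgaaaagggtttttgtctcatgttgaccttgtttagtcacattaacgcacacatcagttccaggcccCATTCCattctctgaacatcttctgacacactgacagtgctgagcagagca

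Among the troponins, the calcium switch of striated muscle, *TNNT1* alone was expressed above the filter. It encodes the troponin T of slow skeletal muscle and measured 30.7, 36.4, and 41.3 CPM with DMSO and 67.0, 55.2, and 62.2 CPM with mocetinostat. All mocetinostat samples were higher (log2 fold change 0.80, standard error 0.14, edgeR adjusted p = 4.29e-07), below the fold threshold except with *GAPDH* scaling. The troponins that would act with it were close to the detection limit in both groups. *TNNI1*, the slow troponin I, held 3, 0, and 0 counts with mocetinostat and none with DMSO, *TNNC1*, the slow and cardiac troponin C, held at most 3 per library, and *TNNI2*, the fast troponin I, was at 0 in all 6 libraries. *TNNI3*, the cardiac troponin I, held 2, 0, and 0 reads under DMSO and 9, 0, and 6 under mocetinostat, a ratio of 18.7 (95% interval 4.35 to 168.7), with no read in mocetinostat replicate 2. *TNNC2*, *TNNT2*, and *TNNT3* held at most 5 counts per library.

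The 4 tropomyosins, which lie along the actin filament and are made in nonmuscle cells too, were all tested. *TPM2*, the β-tropomyosin gene, measured 362.4, 441.3, and 495.5 CPM with DMSO and 290.0, 260.3, and 278.9 CPM with mocetinostat. Every mocetinostat sample was lower (log2 fold change -0.64, standard error 0.08, edgeR adjusted p = 5.29e-10), though with *GAPDH* scaling the difference was -0.11 with an adjusted p of 0.337. *TPM4*, the nonmuscle form, measured 1249, 1333, and 1493 CPM with DMSO and 1190, 1096, and 1101 CPM with mocetinostat (log2 fold change -0.26, standard error 0.07, edgeR adjusted p = 4.00e-04), but was higher by 0.26 with *GAPDH* scaling. *TPM1*, the α-tropomyosin gene, measured 794.3, 800.5, and 808.9 CPM with DMSO and 873.1, 873.2, and 889.0 CPM with mocetinostat, which did not overlap (log2 fold change 0.13, standard error 0.07, edgeR adjusted p = 0.0765). *TPM3* measured 373.2, 388.6, and 393.6 CPM with DMSO and 423.7, 371.8, and 449.7 CPM with mocetinostat, with overlapping groups (log2 fold change 0.11, standard error 0.08, edgeR adjusted p = 0.196). Without the filter the signs of *TPM1* and *TPM3* were negative.

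Shares within a family do not depend on the scaling of the libraries, and they were computed per sample from CPM per kb of annotated exons. They are descriptions, since 3 samples against 3 cannot give an exact permutation p under 0.1. *TPM2* made up 38.8%, 42.5%, and 43.6% of the tropomyosin signal with DMSO and 33.2%, 32.2%, and 32.8% with mocetinostat. The mean fell by 8.89 percentage points, or by 4.25 points without division by length. The share of *TPM1* was 16.8% ± 1.51 (SD, n = 3) with DMSO and 22.6% ± 0.874 (SD, n = 3) with mocetinostat, and that of *TPM3* was 7.85% ± 0.562 and 10.3% ± 0.748 (SD, n = 3 each). In both every mocetinostat sample was higher. *TPM4* made up 33.7% and 34.4%, with overlapping groups, but was lower in every mocetinostat sample with the canonical transcript lengths or with none. The levels of these shares depend on the length used. With canonical lengths *TPM1* was the largest, at 40.6% with DMSO and 49.1% with mocetinostat, against 22.3% and 15.8% for *TPM2* and 3.36% and 3.996% for *TPM3*. The directions for *TPM1*, *TPM2*, and *TPM3* were the same with each length.

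**Figure D3:**
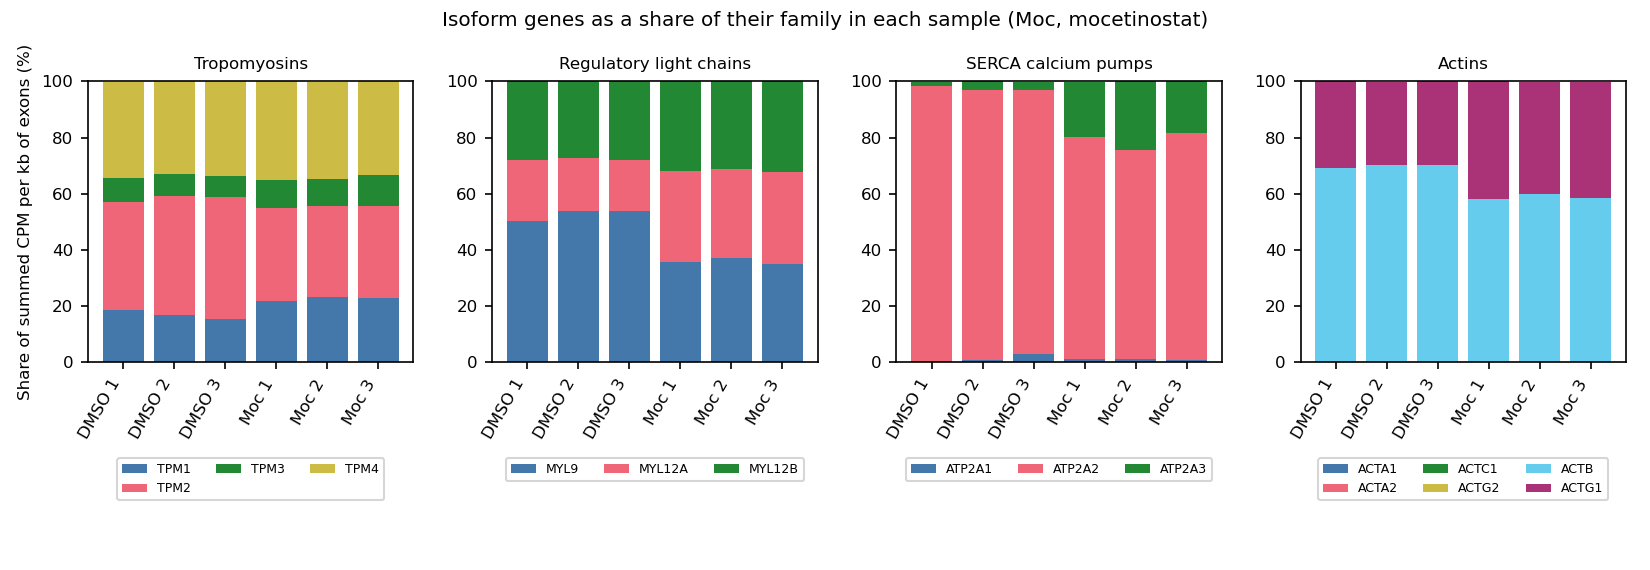
Stacked bars give each gene's share of the summed CPM per kb of exons of its family, in percent, for each of the 6 samples (Moc, mocetinostat). From DMSO to mocetinostat the mean share of *TPM2* goes from 41.6% to 32.7%, that of *MYL9* from 52.7% to 35.9%, that of *ATP2A2* from 96.2% to 78.2%, and that of *ACTB* from 69.5% to 58.5%.

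Among the regulatory light chains, the share of *MYL9* was 50.2%, 53.8%, and 54.0% with DMSO and 35.6%, 37.0%, and 35.04% with mocetinostat, lower in all samples. *MYL12A* and *MYL12B*, the nonmuscle regulatory light chain genes, made up the rest. *MYL12A* went from 19.6% ± 2.07 to 32.3% ± 0.512 (SD, n = 3 each), whereas the direction for *MYL12B* turned with the transcript length used. With canonical lengths *MYL12A* was the largest, at 39.6% and 55.0%, and *MYL9* made up 33.9% and 19.5%, again lower with mocetinostat. Of the SERCA pumps, *ATP2A2* made up 98.03%, 96.2%, and 94.2% with DMSO and 79.1%, 74.6%, and 81.0% with mocetinostat. *ATP2A3*, the SERCA3 gene of nonmuscle tissues, made up 2.57% ± 0.792 with DMSO and 20.8% ± 3.15 with mocetinostat (SD, n = 3 each). Without division by length the share of *ATP2A3* was 1.32% and 11.8%, and that of *ATP2A2* fell by 10.3 percentage points in place of 17.9. *ATP2A3* measured 3.62, 6.87, and 5.90 CPM with DMSO and 55.9, 65.7, and 48.9 CPM with mocetinostat, a URG (log2 fold change 3.45, standard error 0.20, edgeR adjusted p = 3.63e-25).

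The muscle actins together were under 1% of the actin signal in every sample. *ACTG2*, the largest of them, made up 0.360% ± 0.0703 with DMSO and 0.278% ± 0.0172 with mocetinostat (SD, n = 3 each), with overlapping groups. The balance of the cytoplasmic actins differed. *ACTG1*, cytoplasmic γ-actin, went from 30.1% ± 0.558 to 41.2% ± 0.871 of the family and *ACTB*, cytoplasmic β-actin, went from 69.5% ± 0.613 to 58.5% ± 0.840 (SD, n = 3 each), with no overlap in either. In CPM, *ACTG1* measured 3647, 3947, and 3971 with DMSO and 7335, 7376, and 7296 with mocetinostat, just under the fold threshold (log2 fold change 0.93, standard error 0.05, edgeR adjusted p = 4.36e-25), and over it with *GAPDH* scaling. Of the calcium release channels, *RYR1* and *RYR2* stayed a small part. *RYR1* made up 0.176% ± 0.0456 with DMSO and 1.46% ± 0.177 with mocetinostat, and *RYR2* 0.0527% ± 0.0460 and 0.461% ± 0.0724 (SD, n = 3 each), the remainder being the IP3 receptors of nonmuscle cells and *RYR3*. *RYR3*, another ryanodine receptor gene that is no member and was named after its values were seen, measured 0.181, 0.625, and 0.737 CPM with DMSO and 8.72, 2.48, and 11.2 CPM with mocetinostat, a URG that had also passed the filter only through mocetinostat (log2 fold change 4.05, standard error 0.55, edgeR adjusted p = 1.29e-09).

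RefSeq held 59 promoter windows of 300 bases, from 250 before to 50 after a start site, for 38 of the 58 genes, and none for the other 20, among them *TAGLN*, *SNTB1*, and *DES*. A CArG box was found in 9 windows, each of a different gene, that is 15.2% (exact 95% interval 7.22% to 27.0%), where 1.29% of all 35116 windows held one. These genes were *ACTA1*, *ACTC1*, *ACTG2*, *MYLK*, *MYL7*, *TPM4*, *SMTN*, *MYOM1*, and *DMD*. A MEF2 site was in 8.47% of the member windows, those of *TTN*, *MYL1*, *MYH1*, *MYBPC3*, and *ATP2A2*. The exact 95% interval of 2.81% to 18.7% includes the 2.99% of all windows. An MCAT site was in 25.4% (exact 95% interval 14.98% to 38.4%) against 14.0%. These intervals count windows as independent, although some genes have several windows and some of those overlap, as in *DMD*. By gene, a MEF2 site was found in 5 of 38 members (13.2%), against 3.67% of all genes with a window. No interval was computed by gene, so whether members hold MEF2 sites more often was not tested. All 3 motifs were searched on both strands and none overlapped a motif of another kind, while 2 MEF2 sites of *ATP2A2* overlapped each other.

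Genes with a match were found among the changed and the other members. Of the genes with a CArG box, *DMD* was a URG, *TPM4* was lower (higher with *GAPDH* scaling), and *ACTG2*, *MYLK*, and *SMTN* did not pass the test, while the other 4 were under the filter. Of the genes with a MEF2 site, *TTN* was a URG and *ATP2A2* did not pass the test. The windows of *NEB* and *RYR1*, both URGs, held none of the motifs, and those of *LMOD1* and *RYR2* held an MCAT site. A match is a run of letters in the reference sequence, and binding was not measured in these samples.

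The 162 genes of related lists were read from the same fit, with 20.2% URGs and 8.18% DRGs over all genes as their background. Of the 96 tested, 14 passed the filter only through their mocetinostat samples and so had to differ, among them *NEBL*, *SLC8A3*, *DTNA*, *MYH14*, *MYOCD*, *HAND1*, and *SOX5*. Of 30 other sarcomere and Z-disc genes 12 were tested, 7 of them URGs and 1 a DRG, with a median log2 fold change of 1.33. *NEBL*, which encodes the nebulin relative nebulette of the cardiac Z-disc, was the highest, at 0.362, 0, and 0.295 CPM with DMSO and 12.5, 16.7, and 14.9 CPM with mocetinostat (log2 fold change 5.66, standard error 0.50, edgeR adjusted p = 1.51e-16). *OBSL1*, the gene of the obscurin-like cytoskeletal adaptor, was the lowest, at -1.13 (standard error 0.14, edgeR adjusted p = 8.35e-11). Of 27 other calcium release, entry, and reuptake genes 20 were tested, 10 of them URGs and 0 DRGs, with a median of 1.30. In that list 17 of the 20 were higher at an adjusted p under 0.05 in edgeR's test, against 32.9% of all genes tested, and 5 of the 20 passed the filter only through mocetinostat. *SLC8A3*, a sodium-calcium exchanger gene, was the highest, called a URG (edgeR adjusted p = 1.49e-06) on 1 read over all DMSO samples and 24 over those with mocetinostat, a pooled ratio of 59.9 (95% interval 9.77 to 2464). The lowest was *JPH2*, which encodes the cardiac junction protein junctophilin 2, at -0.64 (standard error 0.22, edgeR adjusted p = 8.46e-03). Over the alternative fits its log2 fold change lay between -0.887 and -0.0956.

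Of 24 other dystrophin complex and dystroglycan glycosylation genes 16 were tested, 4 of them URGs and 2 DRGs, with a median log2 fold change of -0.03. *DTNA*, which encodes the dystrophin-binding protein α-dystrobrevin, was the highest, at 0.724, 1.04, and 1.18 CPM with DMSO and 18.2, 14.2, and 16.2 CPM with mocetinostat (log2 fold change 4.10, standard error 0.37, edgeR adjusted p = 7.99e-16). *POMK*, the kinase of the dystroglycan sugar chain, was the lowest at -1.46 (standard error 0.18, edgeR adjusted p = 1.43e-10). *UTRN*, which encodes utrophin, the dystrophin relative of nonmuscle cells, measured 212.2, 205.1, and 195.6 CPM with DMSO and 210.9, 192.1, and 184.4 CPM with mocetinostat. The groups overlapped (log2 fold change -0.05, standard error 0.09, edgeR adjusted p = 0.598), with a positive sign under *GAPDH* scaling.

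Of 20 nonmuscle actin cytoskeleton genes all were tested, with 2 URGs, 0 DRGs, and a median of 0.21. *MYH14*, a nonmuscle myosin heavy chain gene, was the highest, at 0.633, 1.67, and 0 CPM with DMSO and 33.3, 35.3, and 39.4 CPM with mocetinostat (log2 fold change 5.69, standard error 0.33, edgeR adjusted p = 4.50e-25). The lowest was *MYL6B*, a light chain gene, at -0.53 (standard error 0.17, edgeR adjusted p = 5.44e-03) and 0.01 with *GAPDH* scaling. For *ACTB* the log2 difference was 0.22 (standard error 0.05, edgeR adjusted p = 1.48e-04), with a negative sign when no filter was applied.

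**Figure D4:**
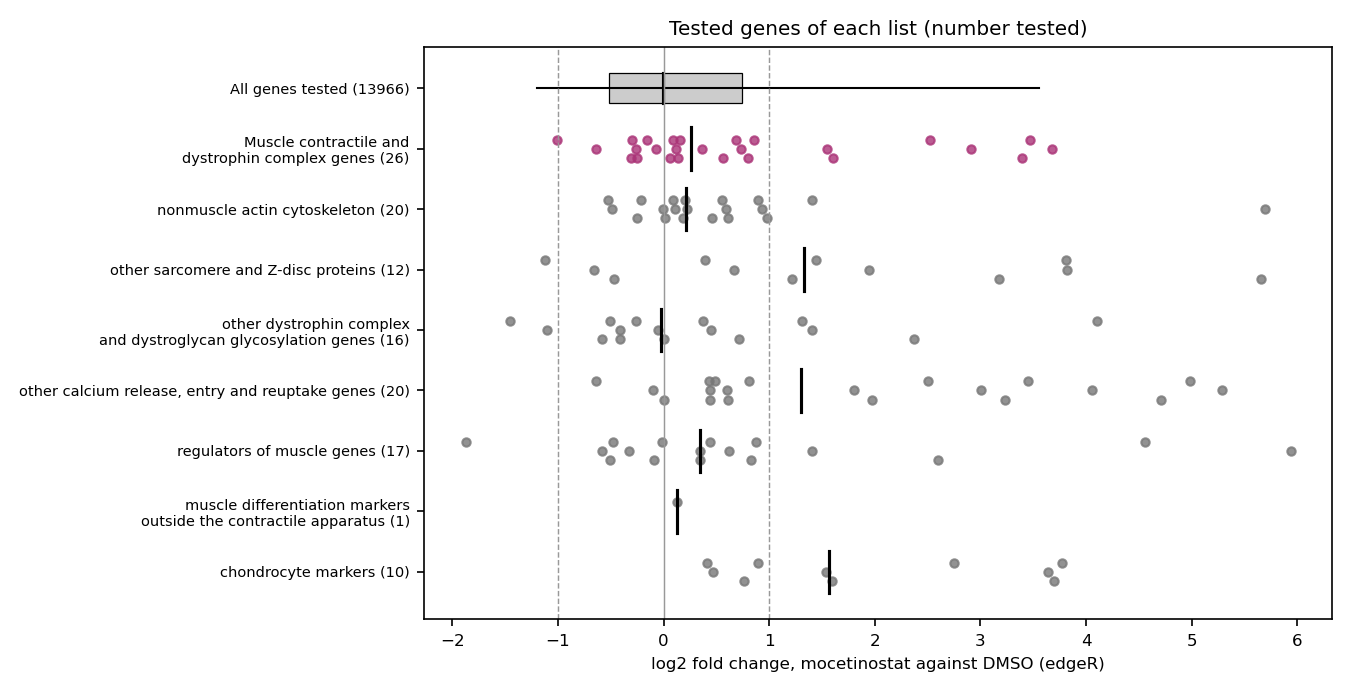
Each point is the log2 fold change of 1 tested gene, mocetinostat against DMSO, with black bars at the medians, numbers tested in parentheses, and dashed lines at the fold threshold of 1. The uppermost row gives all 13966 genes, with a box from the 25th to the 75th percentile and whiskers from the 5th to the 95th. The 26 muscle contractile and dystrophin complex genes have a median of 0.26, and those of the other sarcomere and calcium lists lie at 1.33 and 1.30.

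Of 27 regulators of muscle genes 17 were tested, 4 of them URGs and 1 a DRG, with a median of 0.34. *SRF*, the factor that binds CArG boxes, measured 88.9, 82.5, and 80.9 CPM with DMSO and 57.9, 60.1, and 50.6 CPM with mocetinostat, all lower (log2 fold change -0.59, standard error 0.12, edgeR adjusted p = 1.95e-05), though the value was -0.05 with an adjusted p of 0.744 under *GAPDH* scaling. Its coactivators went in different directions. *MYOCD*, the gene of the cardiac and smooth muscle coactivator myocardin, measured 1.90, 0.833, and 1.62 CPM with DMSO and 11.5, 7.44, and 8.29 CPM with mocetinostat, a URG (log2 fold change 2.59, standard error 0.40, edgeR adjusted p = 5.06e-08). *MRTFA* was higher (log2 fold change 0.62, standard error 0.10, edgeR adjusted p = 5.63e-08) and *MRTFB* lower (-0.33, standard error 0.11, edgeR adjusted p = 7.75e-03), the latter with overlapping groups and with a positive sign under *GAPDH* scaling. *HAND1*, a cardiac transcription factor gene, was the highest, a URG (edgeR adjusted p = 5.98e-11) with 2 reads over all DMSO samples and 66 over those with mocetinostat, a pooled ratio of 82.4 (95% interval 21.9 to 694.4). *HDAC7*, a class IIa HDAC that represses MEF2 factors, was the lowest, at 83.2, 91.8, and 84.2 CPM with DMSO and 23.99, 17.4, and 27.4 CPM with mocetinostat (log2 fold change -1.87, standard error 0.14, edgeR adjusted p = 2.66e-19).

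The skeletal muscle factors *MYOG* and *MYOD1* were near the detection limit. *MYOG* was at 0 in every library, and *MYOD1* held 0 reads under DMSO and 1, 3, and 1 under mocetinostat. The MEF2 factor gene *MEF2C* was also under the filter, with 0.208 to 0.442 CPM with DMSO and 1.24 to 2.78 CPM with mocetinostat. Of 16 muscle differentiation markers outside the contractile apparatus only *ENO3* was tested, at a log2 fold change of 0.13 (standard error 0.41, edgeR adjusted p = 0.796). Of the 8 skeletal muscle cell markers 0 were tested, *MYOG* and *MYF6* were at 0 in all libraries, and the summed level was 0.417 to 1.92 CPM with DMSO and 4.96 to 6.63 CPM with mocetinostat. The 7 cardiac markers summed to 30.2 to 35.4 CPM with DMSO and 40.2 to 46.5 CPM with mocetinostat, with 3 URGs among 4 tested, against 20.2% of all genes tested. Of these URGs, *HAND1* at least had passed the filter only through mocetinostat and so had to differ. All of them belong to the list of regulators of muscle genes. In that list 3 tested genes, *HAND1* and *MYOCD* among them, had passed in this way. The tested cardiac marker that was no URG, *NKX2-5*, a cardiac transcription factor gene named here after its values were seen, was lower in every mocetinostat sample, at 29.7 ± 3.12 CPM with DMSO and 22.0 ± 3.83 CPM with mocetinostat (SD, n = 3 each, log2 fold change -0.47, standard error 0.18, edgeR adjusted p = 0.0175). *GAPDH* scaling shifted the log2 fold changes of all genes by a median of 0.536, which is more than this fall. The 3 smooth muscle markers summed to 2.06 to 3.75 CPM and 19.8 to 27.6 CPM, with 2 URGs among 2 tested, of which *MYOCD* had passed the filter only through mocetinostat. Smooth muscle genes among the members did not move together. *LMOD1* was a URG, past the filter only through mocetinostat, and *CNN1* was higher. *TAGLN* was the DRG, and *MYL9* was lower, though higher with *GAPDH* scaling. *ACTA2*, *ACTG2*, and *SMTN* did not pass the test. Of the chondrocyte markers 10 of 18 were tested and 6 were URGs, again against 20.2% of all genes tested. Their log2 fold changes went from 0.41 for *COL9A2* (edgeR adjusted p = 0.435) to 3.78 for *SOX5* (edgeR adjusted p = 2.30e-06), which had passed the filter only through mocetinostat. The part of other cell types in the muscle gene changes was not tested. In RNA from whole cultures, a change in the number of cells that make a transcript and a change in its amount per cell cannot be told apart.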

How the data were processed

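RNA-Seq was performed on 6 samples of TC28a2 cells, 3 with DMSO and 3 with mocetinostat. The authors deposited whole raw counts of reads per gene, without normalization. According to the methods of the study, adapters were trimmed, ribosomal reads were removed with SortMeRNA, single reads were aligned to GRCh38 with STAR, and genes were counted with featureCounts. The submitters' processing notes give STAR version 2.6.1d and featureCounts version 1.6.4. Strand and multimapping settings are not given in the sources used here. Column names gave the sample, and the labels gave the group.

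edgeR version 4.0.16 (limma 3.58.1, R 4.3.3) was run with TMM factors on the 13966 of 60623 genes that filterByExpr retained (minimum count 10, here 2.01 CPM). Its quasi-likelihood test compared the groups, treatment being the only term. P-values were adjusted by Benjamini-Hochberg over all genes tested, and calls required both a fold threshold (log2 over 1 in size) and an adjusted p under 0.05. The biological coefficient of variation was 9.3%. Replicates of a group differed by more than sampling noise (chi-square per degree of freedom 1.96 to 7.19), and each counted as 1 sample. Genes under the filter were compared by pooled counts over library size with exact 95% intervals. Such intervals cover counting error only, since pooling leaves out the differences between the samples of a group. The reads also carry no molecular identifiers. GENCODE release 44, matched by 99.5% of identifiers, gave positions, exon lengths, and overlaps. Promoter windows are from RefSeq. Python 3.11.15, pandas 2.3.3, and matplotlib 3.10.9 were used for summaries.

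The fit was repeated with DESeq2 version 1.42.0, with glmTreat, with a replicate block, with other scalings (*GAPDH*, RLE, and library size), with other filters (none, or at least 10 counts in every sample), after thinning to 1619344 counts, and leaving out each sample. Canonical transcript length was added after the data were seen. The fits were tested on simulated data. The members and lists were chosen with earlier results of these data known. The genes named are all 58 members, the highest and lowest tested gene of each list (mean in either group 1 CPM or more), *SRF*, *MYOCD*, *MRTFA*, *MRTFB*, *MYOD1*, *MYOG*, *MEF2C*, *HDAC7*, *ACTB*, *ACTG1*, *UTRN*, *ATP2A3*, and *GAPDH*. Family partners, overlapping genes, and cell type markers named beside these follow from the members or lists.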

Additional observations from a re-analysis of the deposited data

How the results depend on the processing

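*TTN* and *DMD* kept their call in all 15 alternatives. *NEB*, *RYR1*, *LMOD1*, and *RYR2* kept theirs in the 13 or 14 in which they were tested. These genes had passed the filter only through mocetinostat, so they had to differ wherever that filter was used. With at least 10 counts in every sample they were not tested. *SNTB1* lost its call with glmTreat and without mocetinostat replicate 1. The number of members called upregulated, 7 as reported, was 13 with DESeq2, 12 with *GAPDH* scaling (adding *TNNT1*, *MYOM2*, *CNN1*, *DAG1*, and *SGCE*), 14 with no filter, 2 with at least 10 counts in every sample, 4 in thinned libraries, and 6 to 11 with a sample left out. Fewer members were tested with at least 10 counts in every sample (18) and in thinned libraries (20). More were tested with no filter (56) and with DESeq2 (56, of which 46 had an adjusted p), and 26 to 31 with a sample left out. Over all genes tested, the share of URGs was 8.33% with DESeq2, 31.7% with *GAPDH* scaling, and 7.90% with no filter. It was 14.9% with at least 10 counts in every sample, 17.9% in thinned libraries, and 19.9% to 21.7% with a sample left out. The number called downregulated, *TAGLN* alone as reported, was 0 with RLE size factors, library size only, *GAPDH* scaling, at least 10 counts, glmTreat, and thinning, and 0 to 1 with a sample left out, the call being lost without mocetinostat replicate 2, where its log2 fold change was -0.995 (edgeR adjusted p = 1.63e-11). Of the related lists, with 33 URGs and 4 DRGs as reported, *GAPDH* scaling called 51 and 1, at least 10 counts in every sample left 17 URGs, and glmTreat left 2 DRGs. Replicate numbers did not pair the samples (correlations of deviations -0.016 to 0.012, with not every sample closest to its own number), and with the replicate block 7 members were URGs and 1 was a DRG. Among the genes tested in both fits, TMM factors computed with no filter shifted log2 fold changes by a median of -0.25.

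Signs turned in genes with small changes. With *GAPDH* scaling the log2 fold change was 0.38 for *ACTA2*, 0.23 for *MYH3*, 0.28 for *MYL6*, 0.23 for *MYL9*, 0.26 for *TPM4*, 0.46 for *SMTN*, 0.0064 for *MYL6B*, 0.48 for *UTRN*, and 0.20 for *MRTFB*. With no filter it was -0.16 for *ACTG2*, -0.10 for *MYLK*, -0.12 for *TPM1*, -0.14 for *TPM3*, -0.19 for *ATP2A2*, -0.0302 for *ACTB*, and -0.12 for *ENO3*. With at least 10 counts in every sample it was 0.0073 for *SMTN* and 0.0241 for *UTRN*, and *SMTN* was at 0.11 in thinned libraries. With a sample left out it ranged from -0.68 to 0.48 for *ACTA2*, -0.0582 to 0.15 for *ACTG2*, -0.20 to 0.0663 for *SMTN*, -0.0308 to 0.0806 for *ATP2A2*, -0.039 to 0.36 for *ENO3*, and -0.0659 to 0.80 for *COL9A2*. The fall of the *TPM2* share, -8.89 points as reported, was -4.25 points with no length normalization and -6.49 with canonical transcript length, which also gave *MYL12B* a change of -0.915 points in place of 4.08. Depth limits the genes under the filter most, since 15 of the 58 members held 3 counts or fewer in every library. The causes of these shifts were not tested.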
